A study of Homo sapiens with 9 samples.

Results

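The genes examined are 9 regulators of urokinase-driven plasminogen activation and of blood coagulation, taken by symbol from the 28216 rows of the deposited count table: PLAU, PLAUR, PLAT, SERPINE2, SERPINB5, F3, TFPI, THBD and PROCR. All 9 symbols had 1 row each. Messenger RNA was sequenced from 3 groups of 3 libraries of prostate cancer cell lines. PC3 cells, an androgen-insensitive line from a metastasis, were untreated and grown in F12K medium with 10% serum. LNCaP cells (clone FCG), an androgen-sensitive line from a metastasis, were moved to phenol red-free RPMI with 10% charcoal-stripped serum for 24 h. They then received 10 nM androgen or vehicle (0.01% ethanol) for 48 h. The labels name the androgen as DHT and the study's main text as R1881. Both lines are labelled WT. Cell line and medium cannot be told apart, and nothing says that the replicates were separate cultures, so that p-values measure the spread between these libraries only.

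Urokinase and tissue plasminogen activator cut plasminogen to plasmin, a protease that dissolves fibrin and degrades extracellular matrix. Urokinase is held at the cell surface by its receptor and is blocked by inhibitors of the serpin family. Coagulation starts when tissue factor binds factor VII, and it is held back by tissue factor pathway inhibitor and, through protein C, by thrombomodulin and the endothelial protein C receptor. Both systems are studied in cancer because cells that carry them can remodel matrix and produce thrombin around themselves.

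The libraries held 17397706 to 25640325 counts on genes. The luminal markers KLK3, KLK2, TMPRSS2 and FOLH1 summed to 23.8 to 39.6 CPM (the count scaled to library size) in PC3 libraries, 7626 to 8242 CPM in androgen-treated LNCaP and 1973 to 2343 CPM in vehicle-treated LNCaP. KLK2 had no count in any PC3 library. The PC3-type markers VIM, CD44, CAV1, ANXA1 and EPHA2 summed to 2851 to 2994 CPM in PC3 cells, 14.4 to 30.0 CPM in androgen-treated and 8.78 to 15.4 CPM in vehicle-treated LNCaP cells. Several of the 9 genes are best known from endothelium, and the endothelial marker CDH5 had no count in any library. The 5 endothelial markers PECAM1, CDH5, VWF, TEK and KDR summed to 6.14 to 8.31, 6.71 to 7.94 and 16.4 to 18.4 CPM in the same order of groups. The 5 fibroblast markers summed to 37.4 to 48.2, 12.3 to 15.3 and 22.5 to 25.8 CPM, the 4 platelet markers to 5.65 to 8.13 CPM in PC3 cells and at most 1.10 CPM in LNCaP cells, and the 5 leukocyte markers to at most 0.787 CPM. The part of other cell types in the results below was not tested, and in bulk RNA fewer cells of a type and less RNA per cell cannot be told apart. PC3 replicate 3 differed more from the other PC3 libraries (chi-square per degree of freedom 29.8 and 51.4) than these from each other (10.9). All 74-nt stretches of the transcripts were compared with the genome and with other genes, and at most 2.02% of them, in TFPI, occurred elsewhere.

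Genes with more than 3 CPM in at least 3 libraries were tested, which 7 of the 9 genes passed where PC3 cells were included and 3 passed within LNCaP cells. A gene was called when the quasi-likelihood test of edgeR gave it a Benjamini-Hochberg adjusted p under 0.05 and its levels differed at least 2-fold. SE stands below for the standard error of a log2 fold change. Of these 7, 6 were called higher in PC3 than in androgen-treated LNCaP cells and 0 lower, where 46% of all genes tested were called and 24% were called higher. Against vehicle-treated LNCaP cells the same test called 6 higher and 1 lower, TFPI, where it called 43.2% of all genes tested, 22.2% higher and 21% lower. In LNCaP cells, 2 of the 3 genes tested, TFPI and SERPINB5, were called lower with androgen and 0 higher, where 7.49% of all genes tested were lower and 6.54% higher. With no filter, 7 of the 9 genes were called against androgen-treated cells (42.9% of the genes with a count) and 9 against vehicle-treated cells (41%), and 4 were called within LNCaP cells (14.4%). The groups did not overlap for 8 of the 9 genes against androgen-treated cells (70.3% of the genes with a count in those libraries), for 9 against vehicle-treated cells (69.9%) and for 4 within LNCaP cells (56.4%). A gene that passed the filter only through its high group had to differ, so that these counts describe the genes and do not test them. Both LNCaP groups were set against the same PC3 libraries, and the androgen-treated libraries also entered the comparison with vehicle.

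**Figure D1:**
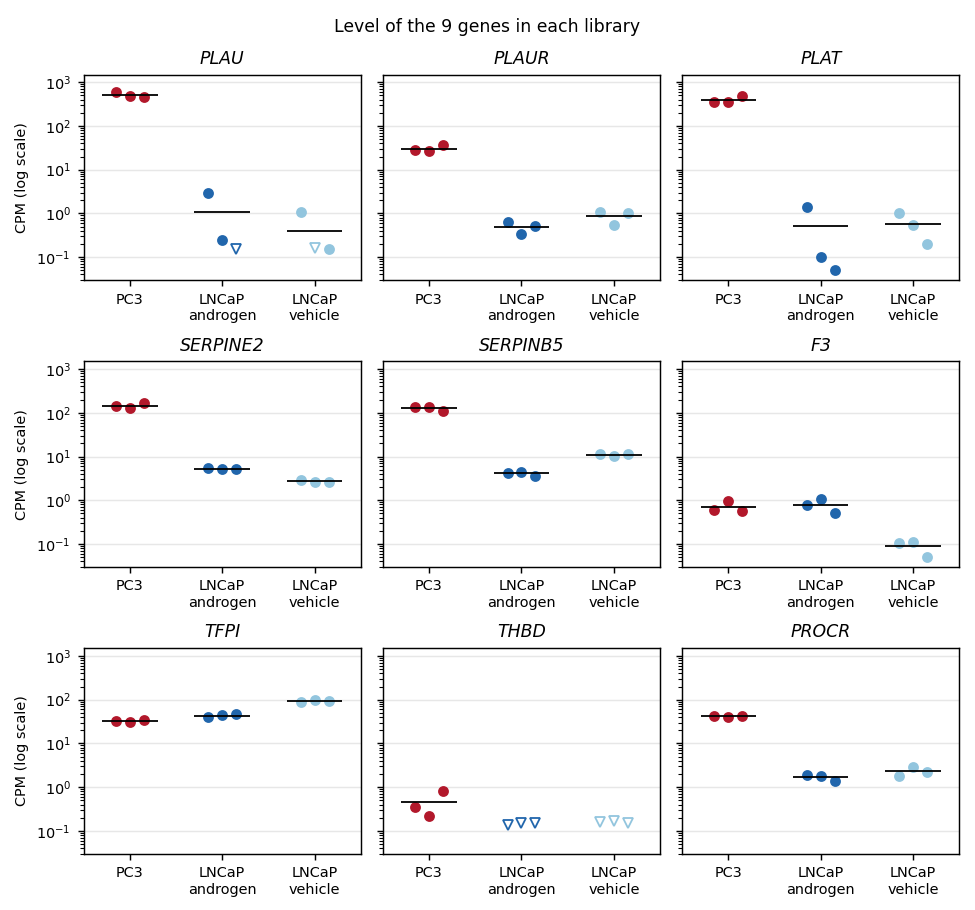
Level of each of the 9 genes in CPM on a log scale in the 9 libraries, with a line at the group mean. Open triangles mark libraries without a count, drawn at the level that 3 counts would give. PLAU and PLAT sit between 344 and 591 CPM in PC3 cells and at no more than 3.00 CPM in every LNCaP library.

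PLAU encodes urokinase and lies on chromosome 10 of GRCh38 from 73909177 to 73917496 on the forward strand. In PC3 replicates 1, 2 and 3 it had 591, 473 and 461 CPM. Androgen-treated LNCaP libraries had 67, 5 and 0 counts (3.00, 0.247 and 0 CPM), and vehicle-treated libraries had 20, 0 and 3 counts (1.05, 0 and 0.152 CPM). Every PC3 library lay above every LNCaP library, and the LNCaP groups overlapped. PLAU exceeded its level in androgen-treated cells by a log2 fold change of 8.79 in PC3 cells (SE 0.67, edgeR-adjusted p = 5.77e-06). Against vehicle-treated cells it was 10.30 (SE 0.47, edgeR-adjusted p = 3.87e-07). Most LNCaP counts came from replicate 1 of each group, the library of each group with the highest sum of PC3-type markers. Without androgen replicate 1 the log2 fold change was 11.95, and without vehicle replicate 1 it was 12.58. C10orf55, a gene on the opposite strand, covers 915 bases (31.0%) of PLAU exons, and the counts used here are those of the PLAU strand.

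PLAT encodes tissue plasminogen activator, the other activator of plasminogen, and lies on chromosome 8 from 42174718 to 42207709. It had 347, 344 and 492 CPM in PC3 replicates 1, 2 and 3. Androgen-treated LNCaP libraries had 32, 2 and 1 counts and vehicle-treated libraries 19, 10 and 4 counts. Replicate 1 was again the highest of each LNCaP group, and replicate 3 the highest of the PC3 group. The log2 fold change in PC3 cells was 9.45 against androgen-treated cells (SE 0.52, edgeR-adjusted p = 9.55e-07) and 9.42 against vehicle-treated cells (SE 0.33, edgeR-adjusted p = 1.03e-07). Without androgen replicate 1 the first value was 12.28, and without vehicle replicate 1 the second was 10.06. With the reads of both strands counted, they were 8.66 and 8.77.

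PLAUR encodes the urokinase receptor, which anchors urokinase to the membrane, and lies on chromosome 19 from 43646095 to 43670547 on the reverse strand. PC3 libraries had 28.6, 26.4 and 36.2 CPM. Androgen-treated LNCaP libraries had 14, 7 and 10 counts (0.627, 0.345 and 0.504 CPM) and vehicle-treated libraries 21, 10 and 20 counts (1.10, 0.549 and 1.02 CPM). PLAUR was higher in PC3 cells by a log2 fold change of 5.92 (SE 0.22, edgeR-adjusted p = 1.42e-07) and 5.10 (SE 0.23, edgeR-adjusted p = 3.50e-07) against androgen-treated and vehicle-treated cells. With the reads of both strands counted, these values were 5.26 and 4.99. Within LNCaP cells PLAUR did not reach the filter. With no filter its log2 fold change with androgen was -0.82 (SE 0.37, edgeR-adjusted p = 0.0711), and the groups overlapped.

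The LNCaP counts of PLAU and PLAT were small beside those of PC3 cells, and in each group they were highest in replicate 1, as was the sum of the PC3-type markers. In androgen replicates 1, 2 and 3, PLAU stood at 0.590%, 0.0485% and 0% of its mean PC3 level, and PLAT at 0.363%, 0.0250% and 0.0128%. In vehicle replicates 1, 2 and 3, PLAU stood at 0.206%, 0% and 0.02998% and PLAT at 0.253%, 0.139% and 0.0515%. PLAT was lower in vehicle replicate 3 than in replicate 2, whereas the marker sum was higher there. With androgen, CAV1 stood at 0.776%, 0.188% and 0.0958%, and CD44 at 0.656%, 0.246% and 0.192%. The other markers fell less steeply after replicate 1. VIM stood at 1.01%, 0.584% and 0.442%, ANXA1 at 1.72%, 1.59% and 1.31%, and EPHA2 at 1.18%, 0.763% and 0.738%. The 5 PC3-type markers together stood at 1.02%, 0.591% and 0.487% with androgen, and at 0.523%, 0.298% and 0.333% in vehicle replicates 1, 2 and 3. PLAUR, SERPINE2, SERPINB5 and PROCR stood higher, between 1.14% and 9.08% of their PC3 level in each LNCaP library. Whether PC3 RNA entered LNCaP libraries was not tested.

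**Figure D2:**
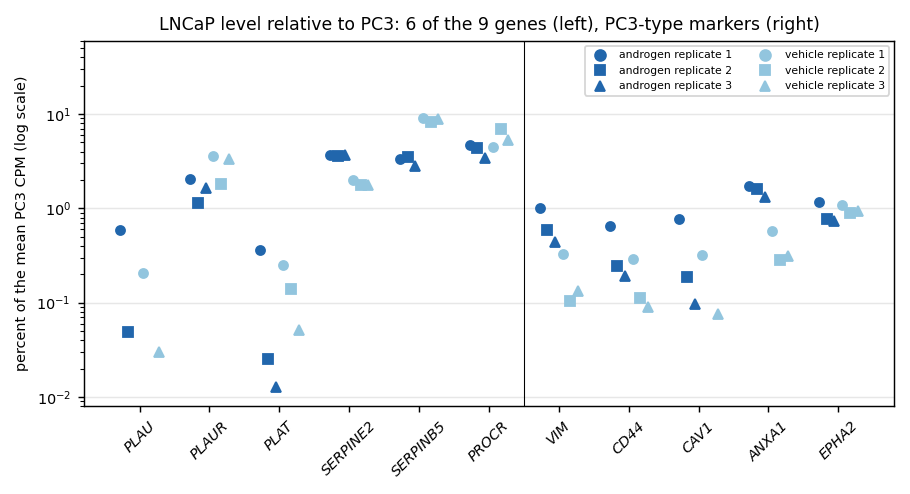
Level in each LNCaP library as a percentage of the mean PC3 level, on a log scale, for 6 of the 9 genes and 5 PC3-type markers; values of 0 are not drawn, and F3, TFPI and THBD are left out. Replicate 1 is the highest library of its group for PLAU, PLAT and all 5 PC3-type markers. SERPINE2 and SERPINB5 show little spread within each treatment group. With androgen, the fall after replicate 1 is steeper in CAV1 and CD44 than in ANXA1 and EPHA2.

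SERPINE2 encodes protease nexin 1, a secreted inhibitor of thrombin, urokinase and tissue plasminogen activator, and lies on chromosome 2 from 223975045 to 224039318. PC3 libraries had 141, 127 and 168 CPM, androgen-treated LNCaP libraries 5.37, 5.23 and 5.29 CPM and vehicle-treated libraries 2.88, 2.58 and 2.59 CPM. The 3 groups did not overlap. SERPINE2 was higher in PC3 cells, by log2 fold changes of 4.78 (SE 0.12, edgeR-adjusted p = 2.70e-08) against androgen-treated and 5.78 (SE 0.13, edgeR-adjusted p = 2.08e-08) against vehicle-treated cells. Androgen-treated LNCaP cells lay above vehicle-treated cells by a log2 fold change of 0.98 (SE 0.13, edgeR-adjusted p = 1.84e-05), a 1.97-fold change just under the threshold of 2. It passed that threshold with no filter on low counts (1.001) and without vehicle replicate 1 (1.04).

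SERPINB5 encodes maspin, a clade B serpin known as a marker of basal and myoepithelial cells, and lies on chromosome 18 from 63476958 to 63505085 on the forward strand. PC3 libraries had 135, 133 and 111 CPM. Androgen-treated LNCaP libraries had 4.21, 4.49 and 3.58 CPM and vehicle-treated libraries 11.5, 10.4 and 11.3 CPM, and no library of one group reached into another. SERPINB5 fell with androgen, with a log2 fold change of -1.43 (SE 0.12, edgeR-adjusted p = 1.36e-07), a 2.69-fold difference. In PC3 cells it was higher than in androgen-treated cells with a log2 fold change of 4.95 (SE 0.13, edgeR-adjusted p = 3.64e-08). Against vehicle-treated cells the log2 fold change was 3.54 (SE 0.11, edgeR-adjusted p = 6.32e-08).

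F3 encodes tissue factor, the membrane protein that starts coagulation, and lies on chromosome 1 from 94529173 to 94541759 on the reverse strand. It had at most 1.09 CPM in any library and was under the filter. PC3 libraries had 15, 22 and 14 counts, androgen-treated LNCaP libraries 17, 22 and 10, and vehicle-treated LNCaP libraries 2, 2 and 1. Every androgen-treated library lay above every vehicle-treated library, a separation found in either direction for 56.4% of the 20429 genes with a count in those libraries, while PC3 and androgen-treated libraries overlapped. The summed counts of 49 and 5 gave an androgen to vehicle ratio of 8.94 after scaling, with an exact Clopper-Pearson 95% interval of 3.58 to 28.8 that covers counting error only. With each androgen-treated library left out in turn the ratio lay between 7.29 and 10.4. The exact two-sided permutation test over libraries gave p = 0.1, the smallest that 3 against 3 allows. In a fit with no filter, F3 rose with androgen (edgeR-adjusted p = 3.73e-05), where 6.66% of 20429 genes were called higher. The ratio of PC3 to androgen-treated cells was 0.882, with an interval of 0.584 to 1.33, and that of PC3 to vehicle-treated cells was 7.89, with an interval of 3.17 to 25.3.

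Promoter windows from RefSeq (GRCh38.p14), from 250 bases before to 50 bases after each transcription start, were matched for 7 of the 9 genes, in 9 windows; PLAT and THBD had none. The bases upstream of F3 and SERPINB5 are shown because these genes moved in opposite directions with androgen in the same LNCaP cells. They are written 5′ to 3′ on the strand of the gene, with capitals at matches, on either strand, to the AP-1 motif TGANTCA, the TATA motif TATAAA and the SP1 motif GGGCGG. F3 has the window chr1:94541760-94542009 on the reverse strand, which also holds an exon of a gene on the other strand, and SERPINB5 has chr18:63476708-63476957 on the forward strand.
F3: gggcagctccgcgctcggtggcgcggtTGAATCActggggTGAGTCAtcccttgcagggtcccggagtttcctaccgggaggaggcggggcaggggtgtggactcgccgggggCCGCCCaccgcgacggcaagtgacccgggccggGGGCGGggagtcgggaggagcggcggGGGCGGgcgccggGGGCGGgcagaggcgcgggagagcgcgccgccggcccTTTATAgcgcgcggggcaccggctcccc
SERPINB5: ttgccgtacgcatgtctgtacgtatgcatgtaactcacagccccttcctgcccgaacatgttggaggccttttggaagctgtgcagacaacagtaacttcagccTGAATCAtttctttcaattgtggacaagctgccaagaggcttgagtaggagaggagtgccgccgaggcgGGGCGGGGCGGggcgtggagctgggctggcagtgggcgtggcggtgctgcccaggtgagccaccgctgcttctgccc
The AP-1 motif began at -223 and -210 before the start of F3, at -146 before SERPINB5 and at -186 before PLAUR. It was held by 3 of the 9 windows and by 7.71% of 35116 promoters. The SP1 motif was held by 6 of the 9 windows, against 44.95% of promoters. These windows belong to F3, PLAU, SERPINB5, PROCR and SERPINE2, which is counted more than once. SERPINB5 has the motif at -77 and -72, where the matches overlap. The TATA motif was held by 2 windows, at -28 in F3 and at -82 in PROCR, against 11.5% of promoters. The half-site AGAACA of the androgen receptor was in 0 of the 9 windows and in 14.8% of promoters, which says only that these letters are not in these windows. A match is a description of the sequence and not a binding site.

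TFPI encodes tissue factor pathway inhibitor, which blocks activated factor X and the complex of tissue factor with factor VII, and lies on chromosome 2 from 187464230 to 187565760 on the reverse strand. PC3 libraries had 32.2, 30.3 and 33.9 CPM, androgen-treated LNCaP libraries 39.6, 44.6 and 46.1 CPM and vehicle-treated libraries 87.3, 98.5 and 94.0 CPM. The groups formed an order without overlap, with vehicle-treated LNCaP cells highest and PC3 cells lowest. TFPI fell with androgen, with a log2 fold change of -1.10 (SE 0.06, edgeR-adjusted p = 2.47e-09), a 2.15-fold difference. It was lower in PC3 than in vehicle-treated cells by a log2 fold change of -1.51 (SE 0.07, edgeR-adjusted p = 3.85e-07). Against androgen-treated cells the difference was -0.43 (SE 0.08, edgeR-adjusted p = 0.00101), under the fold change of 2. TFPI was thus the only one of the 9 genes with a lower mean in PC3 cells than in both LNCaP groups. VWF made up most of the endothelial marker sum in LNCaP cells and was also higher in vehicle-treated cells. CDH5 had no count in any library, and PECAM1 had none in androgen-treated libraries. A link of these markers with TFPI was not tested.

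**Figure D3:**
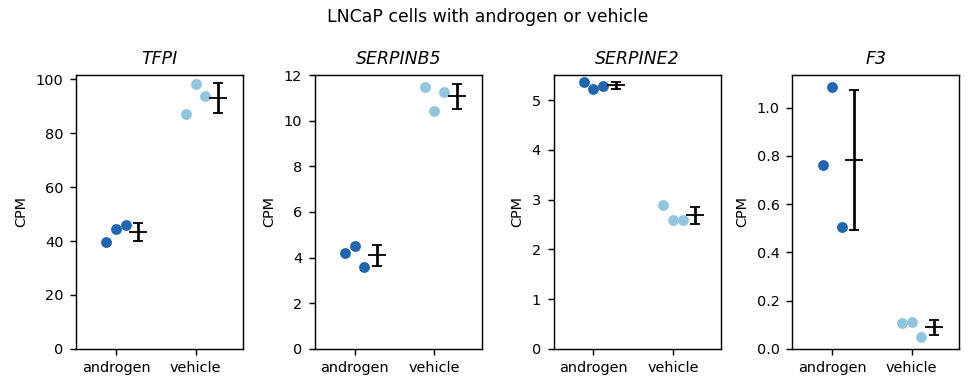
CPM of TFPI, SERPINB5, SERPINE2 and F3 in the androgen-treated and vehicle-treated LNCaP libraries on linear axes from 0, with the mean and SD of 3 libraries in black. TFPI and SERPINB5 lie lower and SERPINE2 and F3 higher with androgen, and the groups of points do not overlap.

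THBD and PROCR encode receptors of the anticoagulant protein C pathway. THBD, thrombomodulin, turns thrombin from a clotting enzyme into the activator of protein C, and lies on chromosome 20 from 23045633 to 23049672. It had 9, 5 and 21 counts in PC3 libraries and 0 counts in each of the 6 LNCaP libraries. Taking 3 counts per library as the limit that a count of 0 allows, THBD was at least 3.23-fold higher in PC3 than in androgen-treated cells and at least 2.96-fold higher than in vehicle-treated cells. Without PC3 replicate 3, which held 21 of the 35 counts, these limits were 1.98 and 1.81. THBD was under the filter, and in a fit with no filter it was called against androgen-treated cells (edgeR-adjusted p = 0.00246) and vehicle-treated cells (edgeR-adjusted p = 0.00428). In those fits 22.5% and 21.1% of the genes with a count were called higher.

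PROCR, the endothelial protein C receptor, presents protein C to the thrombin complex and lies on chromosome 20 from 35172072 to 35216240. PC3 libraries had 41.8, 39.9 and 42.4 CPM, androgen-treated LNCaP libraries 1.92, 1.83 and 1.41 CPM and vehicle-treated libraries 1.83, 2.91 and 2.18 CPM. The 3 PC3 values differed by a coefficient of variation of 3.20%, the smallest of the 9 genes in that line. PROCR was higher in PC3 cells by a log2 fold change of 4.58 (SE 0.13, edgeR-adjusted p = 4.58e-08) against androgen-treated and 4.19 (SE 0.14, edgeR-adjusted p = 9.97e-08) against vehicle-treated cells. The LNCaP groups overlapped, and with no filter the log2 fold change with androgen was -0.39 (SE 0.22, edgeR-adjusted p = 0.151). PLAU and PLAT were likewise not called with androgen in that fit, with edgeR-adjusted p = 0.154 and 0.969.

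**Figure D4:**
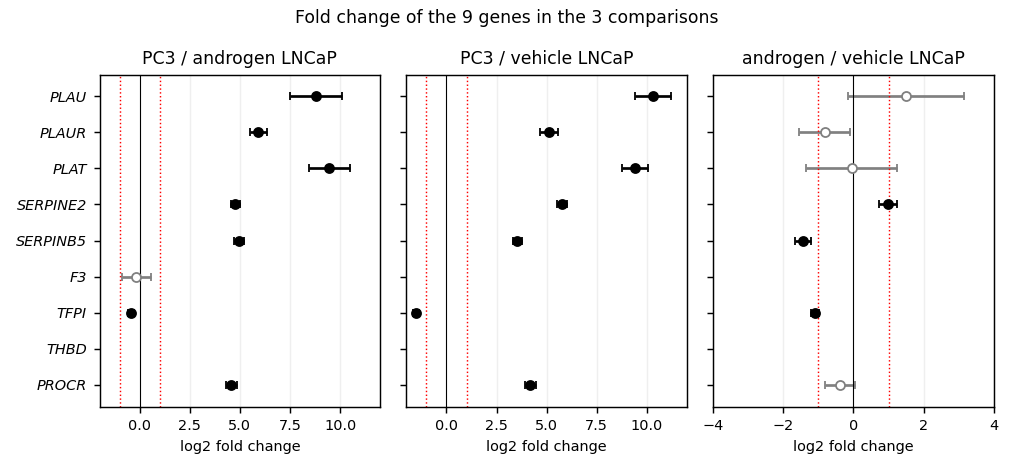
Log2 fold change of the 9 genes in the 3 comparisons, with bars of 95% intervals and dotted lines at a fold change of 2. Filled points were tested after the filter on low counts and open points come from the fit with no filter; THBD, and F3 against vehicle-treated cells, are not drawn because the compared group had at most 2 counts per library. PLAU and PLAT have the largest differences between the lines, at 8.79 to 10.30.

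Divided by the length of their exons, the levels can be compared between genes. In PC3 cells PLAU was the highest of the 9 genes at 172 ± 24.3 CPM per kb (SD, n = 3), ahead of PLAT at 50.7 ± 10.9 (SD, n = 3) and SERPINB5 at 33.8 ± 3.57 (SD, n = 3). PROCR followed at 24.4 ± 0.781 CPM per kb (SD, n = 3) and SERPINE2 at 16.2 ± 2.32 (SD, n = 3). The receptor PLAUR reached 6.82 ± 1.16 CPM per kb (SD, n = 3), so that urokinase exceeded its receptor per length in each PC3 library, by 31.2, 27.0 and 19.2 times. This balance depended on the length used, since PLAUR has 4457 bases of exons in all but 1610 in its longest transcript. With the longest transcript of each gene, the mean PLAU to PLAUR ratio in PC3 cells was 10.1 in place of 25.3 and the mean PLAU to PLAT ratio was 1.69 in place of 3.42, and the order of the 9 genes in PC3 cells stayed as given. In both LNCaP groups TFPI was the highest of the 9 genes, at 3.71 ± 0.291 CPM per kb (SD, n = 3) with androgen and 7.96 ± 0.478 (SD, n = 3) with vehicle. SERPINB5 was next, at 1.09 ± 0.125 and 2.96 ± 0.149 CPM per kb (SD, n = 3 in each group). PROCR followed, at 1.01 ± 0.161 with androgen and 1.36 ± 0.323 with vehicle (SD, n = 3 in each group), so that SERPINB5 and PROCR differed by less than their spread with androgen but not with vehicle.

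The balance between tissue factor and its inhibitor is free of library scaling when taken within a library. TFPI exceeded F3 per length in every library, by 12.99, 7.64 and 14.6 times in PC3 replicates 1, 2 and 3. In androgen-treated LNCaP cells it did so by 12.5, 9.90 and 21.5 times, and in vehicle-treated cells by 164, 177 and 304 times. The vehicle values rest on 2, 2 and 1 F3 counts, to each of which 0.5 was added, so that single reads move them. The F3 to TFPI ratio was thus 14.9-fold higher with androgen than with vehicle (exact two-sided permutation p = 0.1, the smallest that 3 against 3 allows, and 0.225 adjusted over 9 ratio tests). It was 18.3-fold higher in PC3 than in vehicle-treated cells (exact permutation p = 0.1, adjusted 0.225). PC3 and androgen-treated libraries overlapped in this ratio (exact permutation p = 0.6, adjusted 0.771). The PLAU to PLAUR ratio was 30.7-fold higher in PC3 than in androgen-treated cells and 84.6-fold higher than in vehicle-treated cells (exact permutation p = 0.1, adjusted 0.225, in both), with the LNCaP ratios resting on 0 to 67 PLAU counts. On the log2 scale these differences were 4.94 and 6.40, and single LNCaP libraries moved them. The first was 6.49 without androgen replicate 1 and 3.18 without androgen replicate 3, and the second was 7.54 without vehicle replicate 1 and 5.38 without vehicle replicate 2. The PLAU to PLAT ratio overlapped between the groups in all 3 comparisons (adjusted exact permutation p = 0.36 to 1).

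Other genes of plasminogen activation were followed in a list of 20 genes. Against androgen-treated LNCaP cells, 11 were tested, and in PC3 cells 6 of them were higher and 3 lower, with a median log2 fold change of 1.85 against 0.04 for all genes tested. Against vehicle-treated cells, 5 of 11 were higher and 4 lower, with a median log2 fold change of 0.11 against 0.03 for all genes tested. Among all genes tested, 24% were called higher and 22.1% lower against androgen-treated cells. The shares against vehicle-treated cells were 22.2% and 21%. A gene that passed the filter only through its high group, such as MRC2 in PC3 cells, had to differ. The counts and medians of this list therefore describe its genes and do not test them. MRC2, a collagen receptor that binds the urokinase receptor complex, had 82.3 ± 7.11 CPM in PC3 and 0.166 ± 0.245 CPM in androgen-treated cells (SD, n = 3 in each group). PLGRKT, a membrane receptor for plasminogen, was lower in PC3 cells at 7.88 ± 0.527 CPM against 84.3 ± 1.13 in vehicle-treated cells (SD, n = 3 in each group). Within LNCaP cells 7 genes were tested, 1 rose and 1 fell, where 6.54% of all genes tested were called higher and 7.49% lower. The median log2 fold change of these 7 was -0.57 against -0.01 for all genes tested. VLDLR, which clears complexes of urokinase with its inhibitors, rose with androgen, at 75.5 ± 10.0 CPM against 20.03 ± 1.26 CPM with vehicle (SD, n = 3 each, log2 fold change 1.92, edgeR-adjusted p = 5.20e-10). SERPINI1, neuroserpin, an inhibitor of tissue plasminogen activator, fell to 1.73 ± 0.108 CPM against 23.2 ± 3.26 CPM with vehicle (SD, n = 3 each, log2 fold change -3.74, edgeR-adjusted p = 8.02e-11).

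Of 22 other coagulation factors and inhibitors, 10 had at most 3 counts in every library. Against androgen-treated LNCaP cells 8 were tested, 3 higher and 3 lower, and against vehicle-treated cells 7 were tested, 3 higher and 2 lower. Among all genes tested, 24% were called higher and 22.1% lower in the first comparison, and 22.2% and 21% in the second. Here too, a gene that passed the filter only through its high group had to differ. TFPI2, a relative of TFPI that inhibits plasmin, was found almost wholly in PC3 cells, at 78.9 ± 20.03 CPM against 0.260 ± 0.296 and 0.105 ± 0.0512 CPM in androgen-treated and vehicle-treated cells (SD, n = 3 in each group). F5, which encodes the factor V cofactor of thrombin formation, rose with androgen, at 73.8 ± 13.02 CPM against 2.39 ± 0.466 CPM with vehicle (SD, n = 3 each, log2 fold change 4.94, edgeR-adjusted p = 1.57e-11), and PC3 cells had 0.121 ± 0.103 CPM (SD, n = 3). VWF, the carrier of factor VIII, fell to 7.49 ± 0.753 CPM against 17.0 ± 1.19 CPM with vehicle (SD, n = 3 each, log2 fold change -1.18, edgeR-adjusted p = 1.54e-07). F5 was the 1 gene of this list called higher with androgen and VWF the 1 called lower, among 6 tested. The shares of all genes tested were 6.54% higher and 7.49% lower.

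Of the 4 protease-activated receptors, through which thrombin and related proteases signal, 2 passed the filter, and both were higher in PC3 cells than in either LNCaP group. Among all genes tested, 24% were called higher against androgen-treated and 22.2% against vehicle-treated cells. F2R, the main thrombin receptor, had 427 ± 13.9 CPM in PC3 cells, 16.3 ± 2.57 with androgen and 34.5 ± 3.53 with vehicle (SD, n = 3 each). F2RL1, which is cut by trypsin-like proteases and by factor VII with tissue factor, stood at 533 ± 2.40, 113 ± 2.43 and 32.5 ± 1.56 CPM (SD, n = 3 each). With androgen F2R fell by 1.08 on the log2 scale (edgeR-adjusted p = 6.59e-07) and F2RL1 rose by 1.79 (edgeR-adjusted p = 2.80e-12). Of 11 other clade B serpins, 4 were tested between the lines and 3 were higher in PC3 cells than in each LNCaP group, beside the same 24% and 22.2%. Serpins that passed the filter only through PC3 cells had to differ. SERPINB7 had 218 ± 47.3 CPM in PC3 and 0.263 ± 0.318 CPM in vehicle-treated cells, and SERPINB8 rose with androgen, at 8.58 ± 1.09 CPM against 2.18 ± 0.0314 CPM with vehicle (SD, n = 3 each).

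Genes with patterns most like those of the members were ranked by Pearson correlation of log2(CPM + 1) over the 9 libraries among 12843 genes. These libraries form 3 groups, so that any gene with a like difference between the groups ranks high. PLAU was most like CDH11 (r = 0.9991), LGALS1 (r = 0.9989) and FST (r = 0.9988), and 376 genes had r above 0.99. TFPI, with its highest level in vehicle-treated cells, had 34 such genes, led by ANGEL1 and RPAP2 (r = 0.9960 for both). SERPINB5 was most like IKBIP, RRP1B and GPX8 (r = 0.9985 to 0.9983) and had 259 such genes. PLAUR was most like ARHGAP27, P2RY2 and APLF (r = 0.9985 to 0.9983), and PLAT like TNC, SERPINB7 and TFCP2 (r = 0.9994 to 0.9992). SERPINE2 ranked ZYX, PXN and CTSA first (r = 0.9999 to 0.9995), and PROCR ranked FCHO1, TMSB10 and HNF4G first (r = 0.9993 to 0.9989). For PLAUR, PLAT, SERPINE2 and PROCR, 799, 804, 626 and 862 genes had r above 0.99.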

How the data were processed

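Polyadenylated RNA of 9 libraries was sequenced as single-end reads of 74 nt. The authors trimmed adapters with cutadapt, aligned the reads to GRCh38 with STAR, collapsed duplicates by molecular tag in UMI-tools and ran STAR once more. The submitters' processing notes name cutadapt 4.1, STAR 2.7.7a and UMI-tools 1.1.2, whereas the study's methods give other versions of cutadapt and STAR. The authors deposited counts, whole numbers of reads per gene without normalization, in a joint table and in separate STAR files. The 253944 table values all equalled STAR's forward-strand column, and 0 columns went unused. The median library held 21434125 counts on genes. Removing duplicates by molecular tags limits amplification error, and the limits for a count of 0 (3 counts) cover counting error only.

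The 6 libraries of a comparison were fitted together with edgeR 4.0.16 (R 4.3.3): TMM factors, genes over 3 CPM in at least 3 libraries, quasi-likelihood F test and Benjamini-Hochberg adjustment over all genes tested. The standard error was taken from the log2 fold change and its F value. CPM of single genes use TMM factors over all 9 libraries. Filter and thresholds follow the study, whose batch term was left out because the batches are not named. Ratios per length used 0.5 added counts and the union of exons in GENCODE 44 on GRCh38, and exact permutation tests. Only the edgeR quasi-likelihood test was checked on simulated counts, drawn for genes that pass the filter. That check did not cover the permutation tests, the counting intervals or genes with almost no counts in a group. Members and gene lists were chosen with earlier results of these data known. Named were all 9 genes, the called gene with the largest rise and fall of each list and comparison, and the 3 most alike genes of each member. Some of the genes that rule and the marker lists cover are not reported here.

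Replicate numbers are shared by the groups. For LNCaP replicates 1, 2 and 3, deviations from the group means correlated across treatments with 0.384, 0.282 and 0.232. LNCaP libraries of unlike number gave -0.328 to 0.054. Deviations from a group mean cancel within the group, so positive correlations of like numbers force negative ones among unlike numbers. These correlations come from the counts, and whether libraries of the same number were prepared together is not stated. The main fits and the exact permutation tests treated the libraries as unpaired. The replicate number entered only as a block in a recomputed fit.

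Results were recomputed with a replicate block, with edgeR's likelihood ratio statistic, with DESeq2 1.42.0 (its size factors alone, then its Wald test) and with no filter on low counts, the adjusted p-value alone, unstranded counts, all 9 libraries in one fit, each library left out and the longest transcript as gene length.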

Additional observations from a re-analysis of the deposited data

Results flagged for a closer look

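Reads on the strand opposite to a member gene were not part of the comparisons, and in 6 cases every library of a group held more than 3 of them and a higher CPM of them than any vehicle-treated library. In androgen-treated LNCaP cells PLAUR had 6 to 7 such reads per library against 1 to 2 with vehicle, and they made up 38% of the reads on either strand of PLAUR. PLAT had 9, 7 and 10 such reads with androgen, beside 32, 2 and 1 on its own strand. With vehicle it had 4, 7 and 8, beside 19, 10 and 4. In LNCaP cells PLAT thus had many such reads in both groups, and for that reason did not meet the rule there. In PC3 cells the opposite strand took 0.432% of the reads for PLAU, 0.437% for PLAT, 0.325% for SERPINE2, 0.247% for SERPINB5 and 1.40% for PLAUR. Over whole libraries this share was 2.33% to 3.06%.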

How the results depend on the processing

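The number of the 9 genes called, 6 and 7 between the lines and 2 within LNCaP cells, did not change with DESeq2 size factors, the DESeq2 Wald test, edgeR's likelihood ratio test, unstranded counts or 1 fit of all 9 libraries. Unstranded counts lowered the log2 fold change of PLAT from 9.45 to 8.66 and from 9.42 to 8.77, and that of PLAUR against androgen-treated cells from 5.92 to 5.26. With the replicate number as a block it was also 6, 7 and 2, and all genes called were 5756, 5495 and 1638. The PC3 libraries showed no pairing with androgen-treated (correlations -0.034, 0.031 and -0.151) or vehicle-treated libraries (0.051, -0.150 and -0.025) of the same number. With no filter, 7 and 9 of the 9 genes were called between the lines and 4 within LNCaP cells, THBD, F3 and SERPINE2 being the additions, and all genes called were 9147, 8713 and 2941. With the adjusted p-value alone they were 10530, 10577 and 8763, and 7, 7 and 3 of the 9 genes were called. With each library left out and the same genes tested, the number of the 9 genes called stayed at 6 and at 7 between the lines and lay between 2 and 3 within LNCaP cells. Applying the filter again to 5 libraries left 3 or 4 of the 9 genes tested whenever a PC3 library was missing, and then 2 or 4 were called. Without replicate 1 of both LNCaP groups, a choice made after seeing the data, SERPINE2 had a log2 fold change of 1.02 with androgen. Differences of log2 ratios that changed sign when 1 library was left out were F3 to TFPI (-0.03 to 0.53) and PLAU to PLAT (-0.72 to 0.64) between PC3 and androgen-treated cells, and PLAU to PLAUR between the LNCaP groups (-0.0828 to 3.22). The PLAU to PLAUR difference kept its sign between the lines, at 3.18 to 6.49 against androgen-treated and 5.38 to 7.54 against vehicle-treated cells. The cause was not tested. Depth limits F3 and THBD, and the LNCaP levels of PLAU and PLAT.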
